A study of Peromyscus californicus with 17 samples.

Results

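The 6 genes described here encode adrenergic receptors, the receptors of adrenaline and noradrenaline. They are Adrb1 and Adrb3 of the beta class, Adra1a, Adra1b and Adra1d of the alpha-1 class, and Adra2a of the alpha-2 class. They were chosen by gene symbol, 6 of the 27786 genes for which expression was deposited. Expression was measured by RNA sequencing of the lungs of 17 male Peromyscus californicus, the California mouse, a monogamous rodent, from the genetically diverse stock IS. The animals were 12 to 15 months old, and 1 library was made from each. Bonded males (B1 to B6, n = 6) had been in a pair for about 4 months. Bond-disrupted males (BD1 to BD6, n = 6) had been in a pair equally long and were then parted from the mate, and their lungs were taken 1 week later. Virgin males (V2 to V6, n = 5) were of similar age and were kept in groups. Animals with the same number were taken as relatives here. The study gives examples: B2, BD2 and V2 are siblings, and V3 is a cousin of the siblings B3 and BD3. Its text does not list every such pair. Social history and the housing that goes with it cannot be told apart.

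Adrenergic receptors sit in the cell membrane and pass the signal of catecholamines to G proteins. Beta receptors act mainly through the stimulatory G protein and raise cyclic AMP, alpha-1 receptors act through Gq and phospholipase C and contract smooth muscle, and alpha-2 receptors act through inhibitory G proteins, lower cyclic AMP and restrain the release of noradrenaline at nerve endings. In lung, catecholamines relax airways, set vascular tone and speed the clearance of fluid from the alveoli. The comparison of the groups asks whether the levels of these receptors differ with the pair bond or its loss.

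The deposited unit was FPKM, fragments scaled to gene length and to the size of the library. In each column of the deposited table the fragments of a gene had been divided by the length of another gene, 1 row further up for B1 and 17 rows further up for V6. For Adra1a, whose own length came out at 6574 bases, the lengths used ran from 119 to 10133 bases. As deposited, Adra1a therefore stood at 273 FPKM in B3, where the divisor was 119 bases, and at 2.50 in BD6, whereas the fragments themselves were 1109 and 577. The fragments and lengths were recovered from the values, and every level below is FPKM with the gene's own length. The deposited values of the members spanned 15.9-fold (Adra1d) to 1194-fold (Adra2a) between animals. With own lengths, 5 members spanned 2.03-fold (Adra1a) to 4.44-fold (Adrb3), and Adra2a spanned 34.4-fold.

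**Figure D1:**
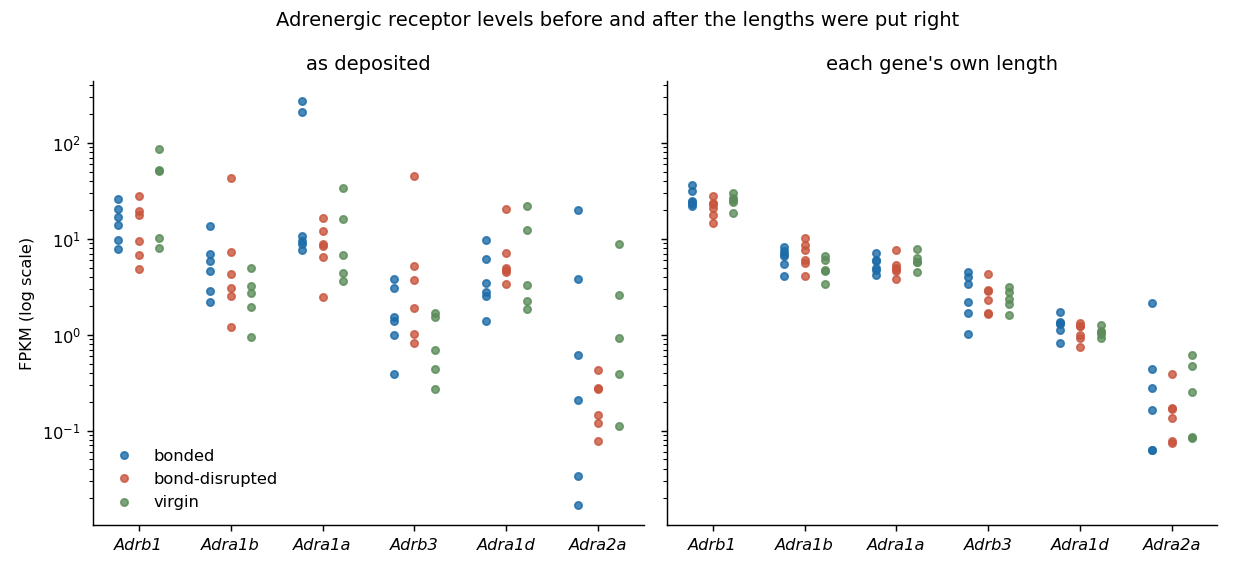
FPKM of the 6 receptors (log axis) in 17 animals, as deposited (left) and with each gene's own length (right), 1 point per animal and the 3 groups side by side in each column. On the left Adra1a reaches 273 FPKM in B3, and on the right its points lie between 3.85 and 7.83.

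Libraries held from 15394200 (B4) to 34116000 fragments (B3) in bonded animals, from 21929900 (BD3) to 29698600 (BD4) in bond-disrupted animals and from 18981900 (V5) to 22448000 (V6) in virgins, rounded to 100 fragments. Pearson's r of the members' levels with depth ran from −0.48 (Adra1d) to 0.0088 (Adra1a) over the 17 animals. The tissue label was checked against marker genes. Sftpc, the surfactant protein of type 2 alveolar cells, averaged 19872 ± 4547 FPKM (SD, n = 17), and Ager, a marker of type 1 alveolar cells, averaged 1642 ± 318. Cardiac muscle genes of the atrial kind were present too, led by Myl7 with 88.1 ± 49.3 FPKM, while the ventricular Myl2 had more than 3 fragments in 1 animal and reached at most 0.385 FPKM. In rodents, the walls of the pulmonary veins hold cardiac muscle.

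A receptor counted as detected in lung where every animal had more than 3 fragments. By this rule all 6 members were detected. Adra2a was the one near the limit, with 4 fragments in B5 (0.0621 FPKM, exact 95% Poisson interval 0.0169 to 0.159, counting error only). The other 5 had at least 27 fragments in each animal.

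Adrb1 encodes the beta-1 receptor, best known from the heart and present on alveolar cells as well. It was the highest of the 6 members in each of the 17 animals, with a mean of 24.6 ± 5.31 FPKM (SD, n = 17) from 941 to 3138 fragments per animal, and it stood above 80.4% of all genes tested. In bonded animals it ran from 22.1 (B6) to 36.9 FPKM (B5) with a median of 24.7. In bond-disrupted animals it ran from 14.8 (BD2) to 28.1 FPKM (BD3) with a median of 22.2. The virgins V2 to V6 had 25.5, 26.7, 18.7, 30.1 and 24.5 FPKM. The 3 ranges overlapped, with the 2 highest values in bonded animals and the 2 lowest in bond-disrupted animals. The RefSeq span of Adrb1 overlaps that of the non-coding gene LOC128124479 (1.12 FPKM), whose level correlated with that of Adrb1 (r = 0.71 over 17 animals), and 6 animals had fractional Adrb1 fragments. Whether these overlapping genes shared fragments was not tested, and the values of Adrb1 carry that uncertainty.

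Adrb3 encodes the beta-3 receptor, known for its role in fat and in the relaxation of smooth muscle. Its mean was 2.62 ± 1.01 FPKM (n = 17), from 27 to 165 fragments per animal. Bonded animals held both its lowest and its highest level, 1.01 (B4) and 4.49 FPKM (B1), with a median of 2.78. Bond-disrupted animals ran from 1.63 (BD4) to 4.32 FPKM (BD2) with a median of 2.58. The virgins V2 to V6 had 2.82, 2.34, 2.1, 1.61 and 3.13 FPKM, all inside the range of the bonded group. Fractional Adrb3 fragments occurred in 3 animals, although no overlapping gene was found among its neighbours in the table. Fat markers were low: all 7 summed to 3.3 to 7.57 FPKM per animal, and Ucp1 of brown fat had more than 3 fragments in 4 of 17 animals.

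Among the alpha-1 receptors, which contract vessels and other smooth muscle, Adra1b and Adra1a stood close together. Adra1b had a mean of 6.26 ± 1.82 FPKM (n = 17). It ran from 4.11 (B3) to 8.21 FPKM (B6) in bonded animals with a median of 6.78, and from 4.08 (BD1) to 10.2 FPKM (BD2) in bond-disrupted animals with a median of 6.89. The virgins V2 to V6 had 6.03, 3.40, 4.59, 4.70 and 6.68 FPKM, so that 3 bond-disrupted and 3 bonded animals lay above the highest virgin. BD2 combined the highest Adra1b with the lowest Adrb1 of all animals.

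Adra1a had a mean of 5.53 ± 1.16 FPKM (n = 17) and the smallest ratio of highest to lowest animal among the 6 members. Bonded animals ran from 4.17 (B4) to 7.09 FPKM (B1) with a median of 5.43, and bond-disrupted animals from 3.85 (BD6) to 7.57 FPKM (BD4) with a median of 4.92. The virgins V2 to V6 had 7.83, 5.72, 4.47, 6.35 and 5.77 FPKM, and the groups overlapped over most of their ranges.

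Adra1d was lower, with a mean of 1.14 ± 0.239 FPKM (n = 17) from 182 to 333 fragments per animal. It ran from 0.821 (B3) to 1.73 FPKM (B5) in bonded animals with a median of 1.30, and from 0.745 (BD6) to 1.31 FPKM (BD5) in bond-disrupted animals with a median of 1.11. The virgins V2 to V6 had 0.928, 1.07, 1.09, 1.01 and 1.26 FPKM and lay inside the range of the bonded group. The RefSeq span of Adra1d overlaps that of Smox, with which its level correlated at r = 0.26.

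Adra2a, the alpha-2A receptor that restrains noradrenaline release, was the lowest member. Leaving B6 aside, bonded animals had 0.0621 (B5) to 0.441 FPKM (B2), bond-disrupted animals 0.0734 (BD3) to 0.388 FPKM (BD6), and the virgins V2 to V6 had 0.0856, 0.0837, 0.467, 0.255 and 0.610 FPKM. In B6 it reached 2.13 FPKM from 181 fragments (exact 95% Poisson interval 1.83 to 2.47 FPKM), 3.50 times the next highest animal. The bonded mean was 0.524 ± 0.802 FPKM (n = 6) with B6 and 0.202 ± 0.161 (n = 5) without it. B6 was also the animal with the highest summed markers of smooth muscle (1386 FPKM, against 362 to 1169 in the others) and of cardiac muscle (561, against 54.1 to 416), and with the lowest summed markers of type 1 (1923, against 2151 to 3991) and type 2 alveolar cells (15197, against 15472 to 33434). The part of tissue composition in the level of Adra2a in B6 was not tested. In a whole lung, fewer cells of a type and less RNA per cell cannot be told apart.

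**Figure D2:**
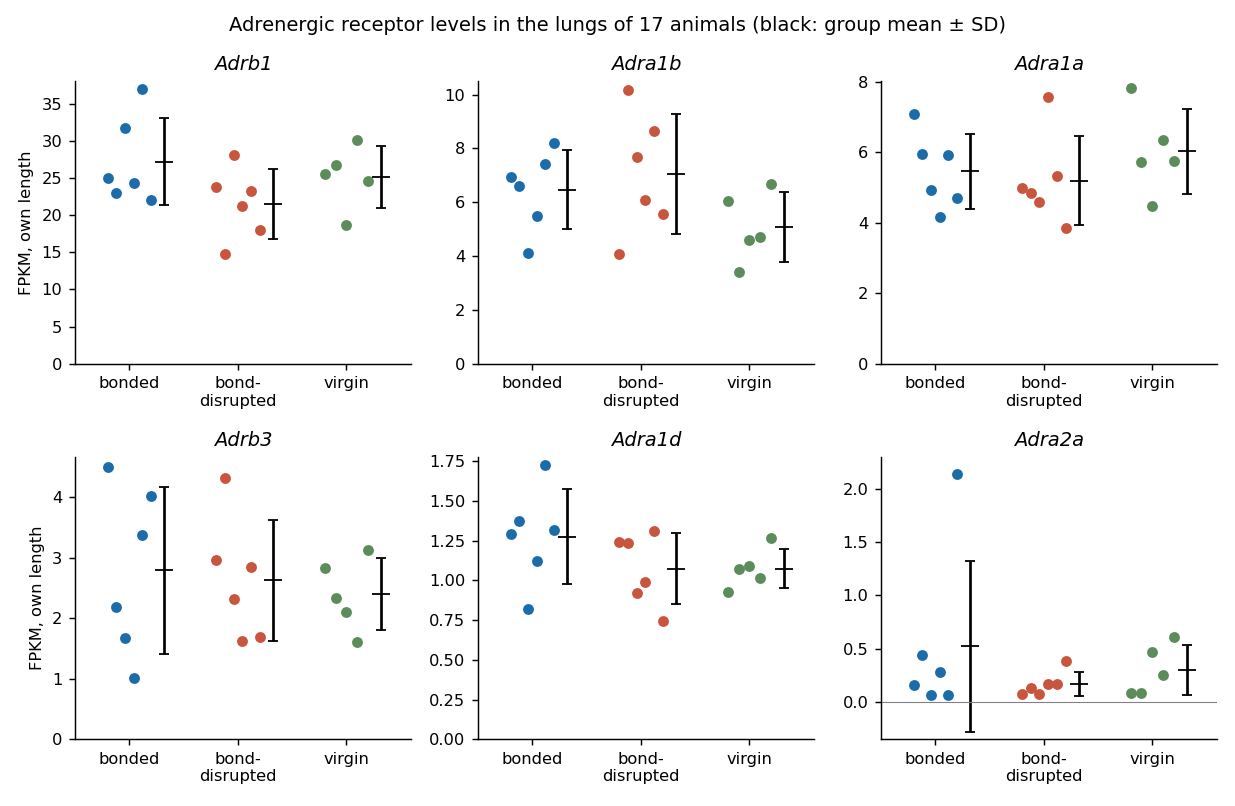
FPKM with own length (linear axes) of the 6 receptors in 17 animals of the 3 groups, 1 point per animal with the group mean and SD in black. The groups overlap in every panel, and B6 stands apart at 2.13 FPKM for Adra2a, where the SD bar passes below 0.

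The levels of different receptors were compared per length and within animals, as the log2 ratio of the FPKM of neighbours in the order of their means, with nothing added to the values, and with two-sided permutation tests by sign flips (100000 resamples, Benjamini-Hochberg over the 5 ratios). Adrb1 exceeded Adra1b in 17 of 17 animals, by 2.00 ± 0.60 on the log2 scale (SD, n = 17, permutation p = 2e-05, adjusted p = 5e-05). Adra1b and Adra1a did not separate, with a mean log2 ratio of 0.15 ± 0.51, Adra1b higher in 10 of 17 animals and a permutation p of 0.248. Adra1a exceeded Adrb3 in 17 of 17 animals by 1.16 ± 0.59 (log2, adjusted permutation p = 5e-05). Adrb3 exceeded Adra1d in 16 of 17 animals by 1.12 ± 0.48, and Adra1d exceeded Adra2a in 16 of 17 by 2.53 ± 1.39 (adjusted permutation p = 5e-05 for each). The order of the pairs came from the same means. Sign flips measure consistency between animals, and an error in a gene's length would shift its ratio equally in every animal. By fragments alone Adrb3 (median 99, length 1735 bases) stood below Adra1d (median 286, length 10710 bases), so their order rests on the recovered lengths. Adrb1 took 41.6% (BD2) to 73.2% (B3) of the summed FPKM of the 6 members. The other alpha-2 receptors were low like Adra2a, with a mean of 0.809 ± 0.617 FPKM for Adra2c and of 0.125 ± 0.171 for Adra2b, which had more than 3 fragments in 13 of 17 animals.

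The spread between the animals of a group, as the SD of log2 FPKM, was 0.30 for Adrb1, Adra1a and Adra1d, beside a counting error of 0.038, 0.053 and 0.090. For Adra1b it was 0.41 against 0.093, for Adrb3 0.62 against 0.16, and for Adra2a 1.46 against 0.43.

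Bond-disrupted lungs were compared with bonded lungs to ask whether losing the partner went with other receptor levels. No receptor passed the test. The largest difference on the log2(FPKM + 0.1) scale relative to its error was that of Adrb1, −0.34 ± 0.17 (SE, 95% interval −0.69 to 0.010, limma, unadjusted p = 0.056, adjusted p = 0.82). The group means of Adrb1 were 21.5 ± 4.69 and 27.2 ± 5.88 FPKM (SD, n = 6 each). Adrb1 was lower than in the same-numbered bonded relative in 6 of 6 bond-disrupted animals. With the animal number as a block the estimate was −0.34 ± 0.12 with an interval that left out 0 (95% interval −0.61 to −0.068, limma, unadjusted p = 0.019), but the adjusted p over all genes remained at 0.82. An exact two-sided sign-flip test over these 6 pairs gave p = 0.031, the smallest that 6 pairs allow, and 0.38 when adjusted over the 18 such tests of the 6 members; it was added after the data were seen. Adra1d differed by −0.22 ± 0.15, Adra1a by −0.08 ± 0.16, Adra1b by 0.09 ± 0.22 and Adrb3 by 0.0029 ± 0.32. The estimate for Adra2a, −0.60 ± 0.56, came to −0.096 without B6 and to −0.27 with a pseudocount of 1. None of the 6 was called at an adjusted p under 0.1 with a fold change of at least 2, against 0 of all 16547 genes tested, or 0% (0 with voom on the fragments as well). Without the block there were 0 of the 6 members and 1015 genes in all, 6.13%, at an unadjusted p under 0.05. With the block, Adrb1 alone of the members was there, among 992 of 16547 genes.

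Virgins were compared with bonded animals to ask whether mature pairs differ from males that never bonded. Adra1b differed by −0.34 ± 0.23 on the log2 scale (SE, 95% interval −0.84 to 0.15, limma, adjusted p = 1.00), with group means of 5.08 ± 1.29 and 6.47 ± 1.46 FPKM (SD, n = 5 and 6). Against the same-numbered bonded relative, Adra1b was lower in 5 of 5 virgins and Adra1a was higher in 5 of 5 (exact sign-flip p = 0.062 for each, the smallest that 5 pairs allow, adjusted p = 0.38). With the block the estimate for Adra1b was −0.40 ± 0.22 (SE, 95% interval −0.88 to 0.076). Adra1d differed by −0.20 ± 0.16, Adra2a by −0.16 ± 0.58, Adrb1 by −0.10 ± 0.17, Adrb3 by −0.08 ± 0.34 and Adra1a by 0.14 ± 0.17. The estimate for Adra2a turned to 0.35 without B6, and to 0.068 and 0.071 without V2 and V3. Again 0 of 6 members and 0 of 16547 genes were called (0%, also with voom), and at an unadjusted p under 0.05 there were 0 of the 6 members and 621 genes, 3.75%.

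Virgins were also compared with bond-disrupted animals, to ask whether a lost bond differs from a bond never formed. Adra1b was at 5.08 ± 1.29 FPKM in virgins and at 7.04 ± 2.22 in bond-disrupted animals (SD, n = 5 and 6), a log2 difference of −0.44 ± 0.23 (SE, 95% interval −0.93 to 0.057, limma, unadjusted p = 0.079, adjusted p = 0.96). With the block it was −0.50 ± 0.22 (95% interval −0.97 to −0.017, limma, unadjusted p = 0.044, adjusted p = 0.99), and Adra1b was lower in the virgin in 4 of 5 pairs. Adra2a differed by 0.45 ± 0.58, Adrb1 by 0.24 ± 0.17, Adra1a by 0.22 ± 0.17, Adrb3 by −0.08 ± 0.34 and Adra1d by 0.02 ± 0.16. The estimate for Adra2a was 0.19 without V6, 0.27 without V4 and 0.68 without V3, and 0.14 with a pseudocount of 1 in place of 0.1. No member and none of 16547 genes was called (0%, also with voom), and at an unadjusted p under 0.05 there were, without the block, 0 of the 6 members and 720 genes, 4.35%. With the block, Adra1b alone of the members was there, among 686 of 16547 genes.

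The intervals without the block bound what these groups could have hidden. For the 5 members other than Adra2a, all 15 of the 95% intervals lay inside a 2-fold change in either direction, and the estimates ran from −0.44 to 0.24 on the log2 scale. The 3 intervals of Adra2a reached past 2-fold, from −1.78 to 0.58 for bond-disrupted against bonded, from −1.39 to 1.08 for virgin against bonded and from −0.79 to 1.69 for virgin against bond-disrupted. Each pair of comparisons shares a group of animals.

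**Figure D3:**
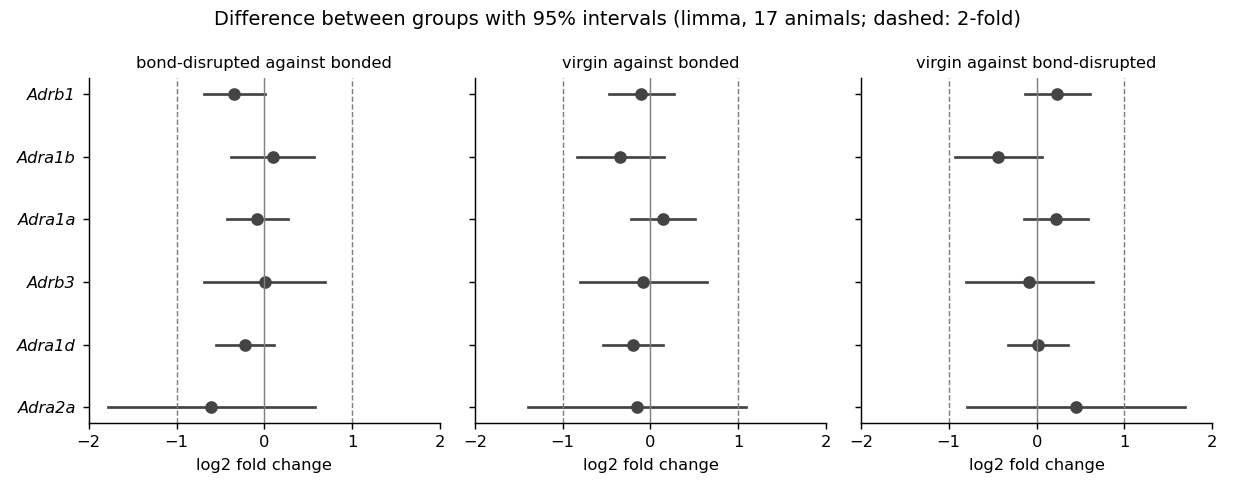
Log2 fold change of the 6 receptors with its 95% interval (limma on log2(FPKM + 0.1), 17 animals) for the 3 comparisons, with dashed lines at 2-fold. Without the block, as drawn, every interval includes 0, and those of Adra2a alone pass the dashed lines.

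Which receptors varied together, and with which cells, was asked across the 17 animals regardless of group. Of the 15 pairs of members, 0 had a Pearson correlation with an adjusted p under 0.1 (Benjamini-Hochberg over the 15). The highest was that of Adrb3 with Adra1d (r = 0.57, permutation p = 0.018, adjusted p = 0.23; Spearman rho = 0.60, permutation p = 0.012, adjusted p = 0.091), and r was 0.68 without the 2 animals with the most extreme Adrb3. Adra1b with Adrb3 came next (r = 0.53, adjusted permutation p = 0.23; rho = 0.57, adjusted p = 0.091). Adrb1 tended to be low where Adra2a was high by rank (rho = −0.60, adjusted permutation p = 0.091) but not by Pearson's r (−0.37, adjusted permutation p = 0.53). With the group means subtracted, both Adrb3 with Adra1d (r = 0.60) and Adrb1 with Adra2a (r = −0.60) reached an adjusted permutation p of 0.078.

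Each member was then set against 9 lists of cell type markers, whose value in an animal was the mean log2(FPKM + 0.1) of their 5 to 9 genes. Of the 54 relations, 9 had an adjusted permutation p under 0.1 for Pearson's r, and 5 of these also for Spearman's rho. No list held a called gene in any comparison.

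Adrb1 rose with the markers of type 1 alveolar cells, the thin cells that line the gas exchange surface (r = 0.60, permutation p = 0.010, adjusted p = 0.062; rho = 0.57, permutation p = 0.019, adjusted p = 0.15). Without the 2 animals farthest from the median of the list, B6 and BD2, r was 0.49. With the group means subtracted it was 0.82 (adjusted permutation p = 0.0027).

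Adrb3 was lower in animals with more of the macrophage markers Marco, Mrc1, Cd68, Adgre1 and Msr1 (r = −0.77, permutation p = 0.00028, adjusted p = 0.015; rho = −0.86, permutation p = 3e-05, adjusted p = 0.0016). This was the relation of the largest size among the 54. It came to r = −0.89 without BD3 and BD6, the 2 animals farthest from the median, and to −0.80 with the group means subtracted. The summed macrophage markers were lowest in BD2 (49.6 FPKM), where Adrb3 was at 4.32, and highest in BD6 (309.9 FPKM), where Adrb3 was at 1.69.

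Adra1d passed the test with 4 lists. It rose with the smooth muscle list (r = 0.66, permutation p = 0.0042, adjusted p = 0.038; rho = 0.63, adjusted p = 0.089) and with the pericyte list (r = 0.66, adjusted permutation p = 0.038; rho = 0.53, adjusted p = 0.17). It fell with the macrophage list (r = −0.72, adjusted permutation p = 0.016; rho = −0.74, adjusted p = 0.025) and with the type 2 alveolar list (r = −0.69, adjusted permutation p = 0.032; rho = −0.73, adjusted p = 0.025). Without the 2 animals farthest from each list's median these 4 values of r were 0.51, 0.43, −0.57 and −0.51. The smooth muscle list itself had a median log2 fold change of −0.54 in bond-disrupted against bonded animals, beside 0.0010 over all genes tested, with 0 of its 6 genes called and all 6 below 0. Of the 6, 2 were lower at an unadjusted limma p under 0.05, beside 6.13% of all genes in either direction. In the same comparison the median was −0.22 for the pericyte list (4 of 5 genes below 0, 0 at an unadjusted p under 0.05), 0.22 for the type 2 alveolar list (6 of 6 above 0, 1 at an unadjusted p under 0.05) and 0.20 for the macrophage list (4 of 5 above 0, 0 at an unadjusted p under 0.05). The part of these 4 lists in the difference of Adra1d between the groups was not tested.

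Adra1a rose with the endothelial list (r = 0.62, permutation p = 0.0066, adjusted p = 0.045; rho = 0.52, adjusted p = 0.18), but r fell to 0.31 without V2 and BD6, so that this relation rests on these 2 animals. Adra1b had no relation with an adjusted p under 0.1, the nearest being smooth muscle (r = 0.50, adjusted permutation p = 0.16), which reached r = 0.68 with the group means subtracted (adjusted permutation p = 0.028).

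Adra2a was higher where type 1 alveolar markers were lower (r = −0.75, permutation p = 0.00054, adjusted p = 0.015; rho = −0.70, adjusted p = 0.033), and r was −0.81 without B6 and BD2. It also rose with the cardiac muscle list (r = 0.65, adjusted permutation p = 0.043; rho = 0.53, adjusted p = 0.17), but r was 0.32 without B6 and B3.

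**Figure D4:**
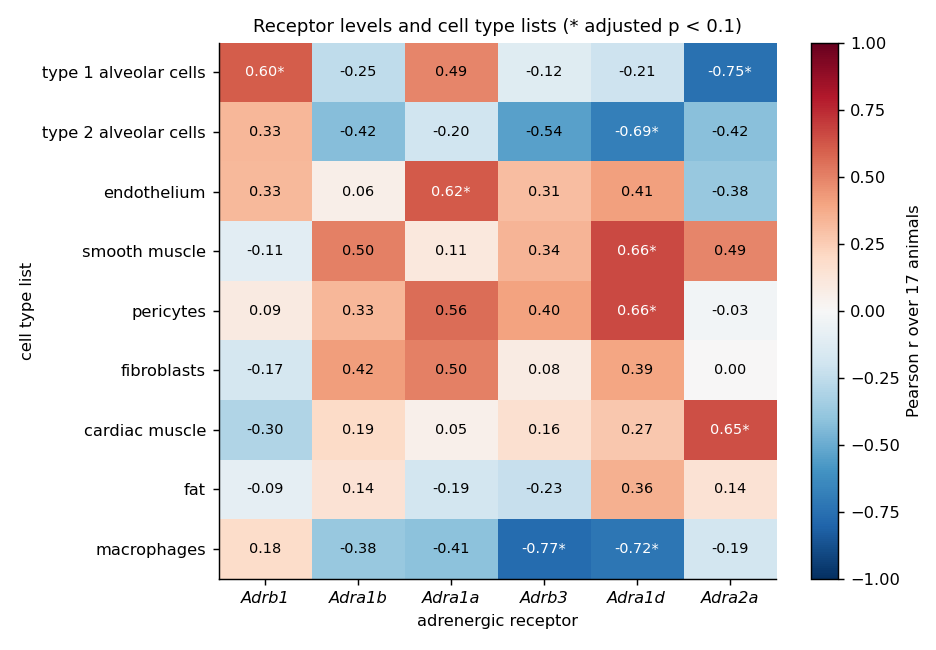
Pearson's r over 17 animals between the level of each receptor (columns) and each cell type list (rows), on the log2(FPKM + 0.1) scale, with an asterisk at an adjusted permutation p under 0.1. The 9 marked cells run from −0.77 (Adrb3 with macrophages) to 0.66 (Adra1d with smooth muscle).

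**Figure D5:**
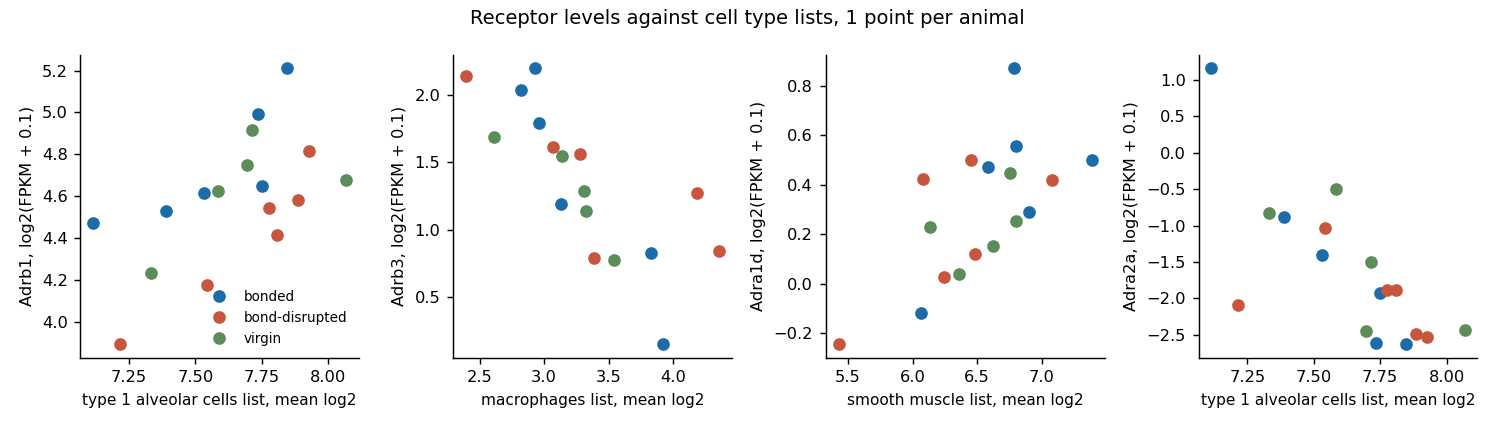
Level of a receptor (vertical, log2(FPKM + 0.1)) against the mean log2 of a cell type list (horizontal) for 4 of the marked relations, 1 point per animal coloured by group. Adrb3 falls with macrophage markers (r = −0.77) and Adra2a with type 1 alveolar markers (r = −0.75), with B6 at the top left of the last panel.

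The genes with the pattern most like each receptor were sought among 12761 genes averaging 100 fragments or more, by Pearson's r over the 17 animals. As the best of many, these values are given without a test. For Adrb1 they were Adamts10 (r = 0.92), Plxnd1 (0.89) and Calhm6 (0.88). For Adra1d they were Tsc22d1 (r = 0.92), Rab34 (0.89) and Znf570 (0.87). For Adra2a, where B6 stands far from the other animals, they were Cfap77 (r = 0.85), Lratd1 (0.85) and Fam81b (0.84). Their Spearman rho was lower, at 0.76, 0.68 and 0.75. For Adra1a the values of r were lower, with Xxylt1 (r = 0.82), Sertad2 (0.80) and Slc25a51 (0.80), and for Adrb3, with Rgs7bp (0.80), Nebl (0.80) and Rtn2 (0.80). By rank they were not below those of Adra2a, with rho from 0.79 to 0.82 for Adra1a and from 0.74 to 0.80 for Adrb3. Adra1b had the lowest values, Cers6 (r = 0.76), Medag (0.74) and Tlcd4 (0.74). With the group means subtracted, the r of these 18 genes ran from 0.67 (Tlcd4 with Adra1b) to 0.91 (Tsc22d1 with Adra1d).

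The genes that feed or relay the receptors' signal were read from 8 lists. Of the enzymes of catecholamine synthesis, Th, the first, had more than 3 fragments in 0 of 17 animals, and Dbh, which makes noradrenaline, in 1. Ddc, which makes dopamine, had more than 3 fragments in 17 of 17 animals (0.911 ± 0.404 FPKM), and Pnmt, which makes adrenaline, in 16 (0.638 ± 0.348). Gch1, which makes the cofactor of Th, led that list at 9.64 ± 2.65 FPKM (SD, n = 17), and Maob, which breaks catecholamines down, had 16.6 ± 3.66. Of the 6 listed genes of breakdown and clearance, 4 had values. Downstream, the inhibitory subunit Gnai2 (182 ± 16.4 FPKM) and the protein kinase A subunit Prkar1a (92.7 ± 6.61) were the highest of their lists among genes with values. So were Rgs2, which shortens Gq signals (68.0 ± 16.1), and Plcb3, a phospholipase C (21.6 ± 2.21). Of the 10 listed G protein alpha subunits, 8 had values, and no stimulatory subunit was among these 8. The rank of Gnai2 holds among these 8 only. Among the muscarinic receptors, which oppose the beta receptors in airways, Chrm1 was highest at 4.25 ± 1.02 FPKM.

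Of the 61 genes of these lists that were tested, 0 were called in any comparison. Their median log2 fold change was 0.0065 for bond-disrupted against bonded, 0.03 for virgin against bonded and 0.02 for virgin against bond-disrupted, beside 0.0010, 0.0060 and 0.01 over all genes tested. At an unadjusted p under 0.05 there were 2 of the 61 (3.28%) for bond-disrupted against bonded, beside 6.13% of all genes. They were Gnai3, an inhibitory subunit, at 0.18 ± 0.063 (log2, SE, limma adjusted p = 0.79), and Chrm2 at −0.79 ± 0.37 (adjusted p = 0.81). For virgin against bonded there were 0, and for virgin against bond-disrupted 3 (4.92%, beside 4.35%): Gnao1 at 0.46 ± 0.19, Chrm3 at 0.56 ± 0.23 and Gnai3 at −0.15 ± 0.066 (limma adjusted p = 0.96 for each). Gnai3 in the last comparison was picked out after its value was seen.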

How the data were processed

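The authors prepared strand-preserving libraries from total lung RNA, 1 per animal, and deposited FPKM for 27786 genes in 17 columns (0 columns left over). The submitters' processing notes name FastQC, Trim Galore 0.4.5, STAR 2.7.2, SAMtools 1.5 and featureCounts of Subread 1.5.3. The genome build and the use of strand in counting are not given in the sources used here. Groups came from the sample labels. All gene names match RefSeq symbols of assembly ASM782708v3.

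Library depths and gene lengths were sought that turn the deposited FPKM into whole fragments, with the divisor's row moving up by 1 from column to column. Of 263559 low recovered values, 81.7% were whole and 16.6% half-integers (within 0.01). The lengths were chosen to make values whole, so these shares are no independent check. Of 1752 values of small RNA genes, checked with the gene's own RefSeq length as the divisor, 4.34% were whole. Of 1554 small RNA lengths, 1545 equal RefSeq. The RefSeq lengths of small RNA genes had been used to find the depths and to start the search. This match was therefore largely built in and is no independent check. All fragments, lengths and own-length FPKM came out for 26202 genes. Over 12761 genes the SD between animals had a median of 1.51 (log2) before and 0.211 after the change to own lengths. Lengths were sought near a prediction from the values of genes across animals, so part of this fall was built in. Intervals from fragments cover counting error only.

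Genes with a mean of at least 10 fragments (16547) were tested with limma 3.58.1 (R 4.3.3) on log2(FPKM + 0.1), 3 groups in one fit, no trend, Benjamini-Hochberg adjustment over all genes, two-sided, and genes were called from 2-fold upwards where the adjusted p was below 0.1; a fold on this scale understates that of low genes such as Adra2a. Correlations used 100000 permutations. Other steps used Python 3.11.15, numpy 2.4.6, scipy 1.17.1 and pandas 2.3.3. The members, lists and tests were chosen with earlier results of these data known. Named were the members, the highest and the lowest-p gene of each pathway list, the highest gene of a cell type list, and the 3 genes most like each member; not all of these are printed, and some genes that the rule names are not reported here. Alternatives were other pseudocounts (0.01, 1), filters, normalizations, a trend, 2 groups only, voom, an additive fit of the row shift, the deposited values, an adjusted p under 0.05, the animal number as a block, and leaving out each animal. Same-numbered animals were taken as siblings or cousins from the study's examples. Of 16 such pairs, 8 had an r above 0.1 once group means were removed. The mean r was 0.080, with values from −0.36 (B2 with V2) to 0.46 (B3 with BD3), so the block was kept as an alternative. The steps were tested on simulated data. The columns are single animals, and no comparison columns were used.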

Additional observations from a re-analysis of the deposited data

Results flagged for a closer look

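The level of Adra2a in B6 (2.13 FPKM with own length, bonded group) lay farther from the nearest other animal of its group than a test for single outlying values allows, and so did that in BD6 (0.388 FPKM, bond-disrupted group). The gap to the next animal was 0.817 of the range of the bonded group and 0.688 of that of the bond-disrupted group. The value in BD6 rests on 33 fragments and lies inside the range of the virgins. These were the flags among 18 groups of values, 6 genes in 3 groups. The test was run on FPKM, and its chance rate of about 1 in 20 holds for normally distributed values. On the log2(FPKM + 0.1) scale B6 stood at 1.16, the next bonded animal at −0.89 and the lowest at −2.62. BD6 stood at −1.03, the next bond-disrupted animal at −1.88 and the lowest at −2.53. Both gaps were a smaller part of the range there, and the test was not run on that scale.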

How the results depend on the processing

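No member was called under any of the 29 alternative settings or in the pairs of relatives, and the estimates with own lengths kept their direction apart from those given here. Adrb3 in bond-disrupted against bonded animals came to −0.019 with a pseudocount of 1 and to −0.0020 with a median-ratio factor. Adra1d in virgin against bond-disrupted animals came to −0.011 with quantile normalization and to −0.052 with the additive fit. With the animal number as a replicate block, Adrb3 came to 0.028 for virgin against bonded and to 0.025 for virgin against bond-disrupted, and the block changed no call. In the pairs with exact sign flips, added after the data were seen, Adrb3 came to 0.086 for virgin against bonded. Leaving out each animal in turn gave −0.24 to 0.17, −0.32 to 0.086 and −0.20 to 0.072 for Adrb3 (bond-disrupted against bonded, virgin against bonded, virgin against bond-disrupted), −0.028 to 0.24 for Adra1b in bond-disrupted against bonded, −0.42 to 0.35 for Adra2a in virgin against bonded and −0.073 to 0.075 for Adra1d in virgin against bond-disrupted. The count of called genes, 0 in each comparison, was 0 to 1 in the fits lacking a single animal; it was 1 without BD2, B4 and BD6, in that order of the comparisons. Estimates that kept their direction still moved by over 1.5 times in size in some settings. Leaving out each animal gave −0.19 to −0.00076, 0.040 to 0.24 and 0.12 to 0.33 for Adra1a (comparisons in the same order), −0.17 to −0.0027 (without V4) for Adrb1 in virgin against bonded and 0.13 to 0.34 in virgin against bond-disrupted, −0.33 to −0.13 and −0.31 to −0.12 for Adra1d in bond-disrupted and virgin against bonded, and −0.47 to −0.21 for Adra1b in virgin against bonded. With the additive fit, Adra1d came to −0.37 and −0.42 for bond-disrupted and virgin against bonded, and Adrb1 to −0.21 for virgin against bonded. With the deposited values as they stand, where the divisor changes from animal to animal by construction, 44, 81 and 25 genes were called (bond-disrupted against bonded, virgin against bonded, virgin against bond-disrupted). There the estimates of Adra1b (−0.044) and Adra1d (0.75) for bond-disrupted against bonded, of Adra1a (−1.57), Adrb1 (0.96), Adra2a (0.60) and Adra1d (0.53) for virgin against bonded, and of Adra1d (−0.22) for virgin against bond-disrupted had the other sign, and so had the log2 ratios of Adra1b to Adra1a (−1.67) and of Adrb3 to Adra1d (−1.60). With 0.1 added to both values, also chosen after the data were seen, the log2 ratio of Adra1d to Adra2a was 1.93, and the 5 ratios kept their direction and their side of the threshold. The 9 relations with cell type lists kept their direction and, by Pearson's r, an adjusted permutation p under 0.1 with the group means subtracted, with other pseudocounts and with a median-ratio factor. By Spearman's rho, Adra1d with type 2 alveolar cells (adjusted permutation p = 0.12) and with smooth muscle (0.18) no longer had one with the group means subtracted. Depth limits Adra2a, with a median of 15 fragments, more than the other members.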
